A study of Arabidopsis thaliana with 12 samples.

Results

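A set of 61 Arabidopsis thaliana genes had clearly lower array signal in plants under photosystem II light with the inhibitor DCMU than in plants under photosystem I light. They were picked on the deposited intensities themselves. A row of the table entered when its feature was paired with exactly 1 gene, the mean of the 6 15-PSII_DCMU samples was at most 0.65 times that of the 6 15-PSI samples, the highest 15-PSII_DCMU value lay under the lowest 15-PSI value, and the 15-PSI mean was at least 0.3. Of 3439 features, 692 had exactly 1 gene and 75 of these met the limits. Another 14 were then set aside by function: 5 for cell wall enzymes, 2 for photosystem II assembly (PSB27 and LPA19), 2 for amino acid synthesis, and 1 each for a histone, a pentatricopeptide repeat protein, an mTERF protein, a plastid ribosomal protein and the ascorbate and complex I gene GLDH. That left 61. Because the comparison of the light conditions chose these genes, their differences are given below as descriptions, with no test.

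All 12 samples were total RNA from wild-type plants of the ecotype C24. The 6 PSII_DCMU samples came from plants under light specific for photosystem II that also received DCMU, and the 6 PSI samples came from plants under light specific for photosystem I that received no DCMU. Light and inhibitor changed together, so their parts cannot be told apart. The labels give no tissue, age or length of treatment, and none of the 25 marker genes listed for green tissue, root, flower and seed was measured by a feature with exactly 1 gene. Intensities are in the arbitrary units of the deposited table. In a bulk sample, fewer cells of a type and less RNA per cell cannot be told apart. Samples 1 and 2, 3 and 4, and 5 and 6 of a group were more alike than other samples, with a median partner difference over the 61 genes of 5.08% in PSII_DCMU and 5.90% in PSI, although single genes differed by up to 40.6% in PSII_DCMU and 59.6% in PSI. These partners were averaged, so means carry the SD over 3 replicates (n = 3), and for the main genes the lowest, median and highest of the 6 samples are given first. Whether the replicates came from separate plants is not stated.

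In leaves, photosystem II splits water and hands electrons to the plastoquinone pool, and photosystem I takes them up again by way of the cytochrome b6f complex. DCMU sits in the plastoquinone site of photosystem II, so that the pool receives no electrons from it, and light absorbed mainly by photosystem I drains the pool. The redox state of this pool is known to act on the expression of photosynthesis genes in plastid and nucleus. Genes known for the photosynthetic complexes were set aside in the choice, except that AT4G37230, for which a relation to the photosystem II protein PsbO could not be settled, was kept. Of the 61, 41 have a product or domain that can be named with confidence, and for the other 20 no role is given.

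Over the 61 genes the ratio of PSII_DCMU to PSI means ran from 0.304 to 0.645, with a median of 0.549, and 17 genes were at or under 0.5. Their PSI means ran from 0.394 to 11.7 with a median of 1.24, where the median over all features was 0.581. Their PSII_DCMU means ran from 0.212 to 6.30 with a median of 0.637, where the median over all features was 0.668. Intensities of different features depend on their probes, and the genes were chosen for high PSI values relative to PSII_DCMU values, so nothing is read from these medians. None of the 61 had a value of 0 or below the floor of 0.0431 that was used before logarithms, the 1st percentile of the positive intensities. Across the 61 genes, which share the same 12 samples, the correlation of the ratio with the log2 PSI mean was weak (Pearson r = -0.13, Spearman rho = -0.10).

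In the fit across all features (limma, Benjamini-Hochberg), 22.0% of features were called lower under PSII_DCMU, and 13.3% of all features and 10.8% of those with exactly 1 gene met the numeric limits. Of the 61 genes, 59 were called lower in that fit, which the choice of the genes makes nearly certain and from which nothing is read. With the pair number as a replicate block the count was 57, and 22.7% of all features were called lower.

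**Figure D1:**
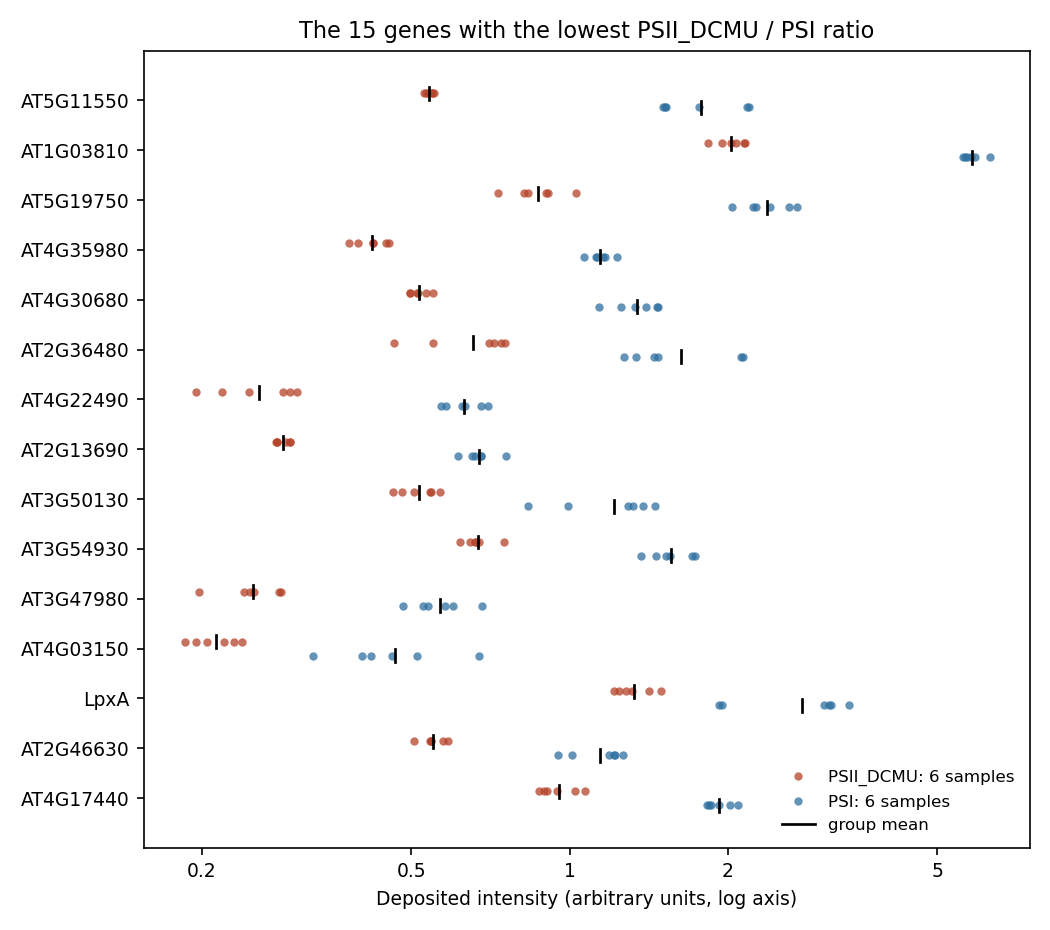
Deposited intensity (log axis, arbitrary units) of the 15 genes with the lowest ratio, with 6 PSII_DCMU samples above 6 PSI samples in each row and a bar at each group mean. The gap between the groups is widest for AT5G11550 and AT1G03810, and a pair of PSI samples stands apart from the other PSI samples in AT2G36480, LpxA and AT3G50130.

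The strongest difference belonged to AT5G11550, which encodes a protein of the armadillo (ARM) repeat superfamily, a fold that serves in protein contacts. Its intensity was 0.528 at the lowest, 0.543 at the median and 0.553 at the highest of the PSII_DCMU samples, against 1.5, 1.64 and 2.19 in the PSI samples. The PSII_DCMU samples were almost identical, while the PSI samples were spread, and the lowest PSI value was 2.72 times the highest PSII_DCMU value. The mean was 0.541 ± 0.00821 in PSII_DCMU and 1.78 ± 0.356 in PSI (SD, n = 3), or 3.29-fold lower. Among all features with 1 gene, those whose replicate deviations from the group means were most like its own were AT1G73740 (Pearson r = 0.99), AT2G03200 (r = 0.99) and AT4G13680 (r = 0.97), over 6 averaged replicates. None of these 3 belonged to the 61, and their log2 changes were 0.28, 0.31 and -0.26. These r values are the highest of many over few replicates, and AT5G11550 hardly varied in PSII_DCMU, so nothing is read from them.

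The 4 genes for RNA and nucleic acid binding had ratios of 0.349 to 0.549, the highest of which equals the median of the 61. AT1G03810, whose product has an OB fold as found in proteins that bind nucleic acid, had 1.83, 2.05 and 2.15 (lowest, median and highest) in PSII_DCMU samples, against 5.60, 5.75 and 6.28 in PSI samples. The groups lay far apart and both were tight, with means of 2.03 ± 0.122 in PSII_DCMU and 5.82 ± 0.116 in PSI (SD, n = 3). Another feature that lists AT1G03810 together with 2 more genes had means of 1.11 in PSII_DCMU and 1.22 in PSI, a ratio of 0.910, and its groups overlapped. AT4G30680, with the MA3 domain known from translation initiation factor eIF4G, had 0.497, 0.514 and 0.551 in PSII_DCMU samples, against 1.14, 1.36 and 1.48 in PSI samples. AT2G36480, of the ENTH/VHS family that includes both membrane traffic and mRNA end-processing proteins, had 0.464, 0.710 and 0.752 in PSII_DCMU samples, against 1.27, 1.46 and 2.14 in PSI samples, with 1 pair of PSI samples standing well above the others. AT5G19210, for a DEAD-box RNA helicase, had a mean of 0.310 ± 0.0245 in PSII_DCMU and 0.565 ± 0.157 in PSI (SD, n = 3). Its highest PSII_DCMU sample (0.343) came close to its lowest PSI sample (0.373). A feature that lists AT5G19210 with 2 more genes had a ratio of 0.430.

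Membrane proteins followed. AT5G19750 belongs to the Mpv17 and PMP22 family of small organelle membrane proteins. It had 0.732, 0.868 and 1.03 in PSII_DCMU samples, against 2.03, 2.33 and 2.71 in PSI samples, so that every PSI sample was at least 1.98 times every PSII_DCMU sample. AT3G47980, of the HPP family of integral membrane proteins, averaged 0.250 ± 0.0299 in PSII_DCMU and 0.568 ± 0.0609 in PSI (SD, n = 3).

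The plant family with domain DUF247, whose biochemical role is not settled, gave 2 of the 61 genes, which lie near each other on chromosome 3, with 4 protein-coding genes between them. AT3G50130 had 0.463, 0.524 and 0.567 in PSII_DCMU samples, against 0.835, 1.31 and 1.45 in PSI samples. AT3G50180 had 0.771, 0.815 and 0.848 in PSII_DCMU samples, against 1.12, 1.42 and 1.76 in PSI samples. The PSII_DCMU samples were the tighter group in both genes. Their ratios were 0.426 and 0.570. A feature that lists AT3G50130 with 2 more genes had means of 1.27 in PSII_DCMU and 3.76 in PSI. Near copies in this family could share signal.

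Lipid genes had middling ratios. LpxA encodes an acyltransferase related to the enzyme that starts lipid A synthesis in Escherichia coli, and had 1.21, 1.3 and 1.49 in PSII_DCMU samples, against 1.92, 3.08 and 3.39 in PSI samples. AT2G22890, related to the plastid desaturase FAD4, averaged 1.95 ± 0.0665 in PSII_DCMU and 3.69 ± 1.08 in PSI (SD, n = 3). AT2G04540 encodes the mitochondrial ketoacyl-ACP synthase of fatty acid synthesis and averaged 0.689 ± 0.00683 in PSII_DCMU and 1.24 ± 0.131 in PSI (SD, n = 3). The PSI samples of LpxA and AT2G22890 were widely spread and those of AT2G04540 were not. FAX3, of the family that exports fatty acids from plastids, had 0.708, 0.757 and 0.779 in PSII_DCMU samples, against 0.784, 1.29 and 1.63 in PSI samples. The groups of FAX3 almost touched, and it was 1 of the 2 genes not called in the fit across all features. CHL, the chloroplast lipocalin that protects thylakoid lipids, averaged 0.277 ± 0.0569 in PSII_DCMU and 0.494 ± 0.0633 in PSI (SD, n = 3). From a list of 8 measured genes for fatty acids and acyl lipids, written from the gene names with earlier results known, 4 were among the 61. Of the other 4, the lipase gene AT3G61680 was lower (log2 change -0.51 ± 0.103 SE, adjusted p = 0.0148, limma), the plastid ketoacyl-ACP reductase gene AT1G24360 was higher (1.04 ± 0.274 SE, adjusted p = 0.0317), the thioesterase gene FATB did not pass (-0.23, adjusted p = 0.554) and AT5G16230 was listed at 0 in all samples.

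Of the genes with a lipid-transfer fold, whose products are small secreted proteins that bind lipids, 2 were among the 61. AT4G22490 had 0.195, 0.266 and 0.304 in PSII_DCMU samples, against 0.570, 0.628 and 0.700 in PSI samples. AT2G48130 lay close to the limit of the choice with 0.359, 0.411 and 0.441 in PSII_DCMU samples, against 0.555, 0.618 and 0.736 in PSI samples. At nearly equal PSI intensity, AT4G22490 had the lower ratio, 0.407, and AT2G48130 had 0.641.

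Metal-binding proteins gave 3 members. CUTA, a chloroplast protein of a family tied to copper tolerance in Escherichia coli, was the second brightest of the 61. It had 3.66, 4.60 and 5.13 in PSII_DCMU samples, against 7.83, 8.50 and 9.56 in PSI samples, and the groups were clear of each other. The genes AT2G28660 and AT4G05030 encode proteins with a heavy-metal-associated domain. AT2G28660 averaged 0.418 ± 0.0180 in PSII_DCMU and 0.753 ± 0.123 in PSI (SD, n = 3). AT4G05030 averaged 0.313 ± 0.0450 in PSII_DCMU and 0.616 ± 0.174 in PSI (SD, n = 3), with a wide spread in PSI. These 3 genes and CCS, the copper chaperone of superoxide dismutase, made up a hand-written list of 4 measured genes for copper and metal handling. CCS did not pass (log2 change -0.32 ± 0.266 SE, adjusted p = 0.377, limma).

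Proteins that act on plastid proteins or plastid gene expression formed a group of 5 with ratios of 0.499 to 0.630. GNAT4 encodes a plastid acetyltransferase and had 0.257, 0.268 and 0.30 in PSII_DCMU samples, against 0.454, 0.533 and 0.627 in PSI samples. SECE1, a subunit of the thylakoid Sec translocase, had 0.686, 0.760 and 0.843 in PSII_DCMU samples, against 1.21, 1.25 and 1.36 in PSI samples. CLPS1, which delivers substrates to the Clp protease of the stroma, had 0.822, 0.905 and 1.02 in PSII_DCMU samples, against 1.26, 1.55 and 1.82 in PSI samples. Among these 3 genes the gap between the groups was narrowest in CLPS1. The remaining members were AT4G26370, with the NusB domain of bacterial antitermination factors, at a ratio of 0.630, and AT3G12930, of the iojap family that in bacteria silences ribosomes, at 0.626. AT3G12930 was the other gene not called in the fit, with PSII_DCMU samples reaching 0.564 and PSI samples starting at 0.569. Among relatives outside the 61, the plastid acetyltransferase gene GNAT5 was higher under PSII_DCMU (log2 change 0.92 ± 0.249 SE, adjusted p = 0.0335, limma). CLPF, a partner of CLPS1, did not pass (0.04 ± 0.113 SE, adjusted p = 0.805).

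Genes for signalling proteins had 6 members. AT3G54930, a B' regulatory subunit of protein phosphatase 2A, had 0.619, 0.663 and 0.750 in PSII_DCMU samples, against 1.36, 1.54 and 1.73 in PSI samples. RALFL32, a peptide of the rapid alkalinization factor family, averaged 0.602 ± 0.0601 in PSII_DCMU and 1.05 ± 0.137 in PSI (SD, n = 3). CKA4, the plastid form of the catalytic subunit of casein kinase 2, averaged 0.386 ± 0.0320 in PSII_DCMU and 0.637 ± 0.0858 in PSI (SD, n = 3). AT3G04210, with the TIR and NBS domains of disease resistance proteins, had 1.0, 1.06 and 1.23 in PSII_DCMU samples, against 1.3, 2.15 and 2.54 in PSI samples, so that its groups nearly met. AT4G31470, of the CAP family that includes the pathogenesis marker PR1, had 2.40, 2.87 and 3.21 in PSII_DCMU samples, against 3.59, 5.32 and 6.04 in PSI samples. SWAP70, an exchange factor for small GTPases, had a ratio of 0.640.

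Regulators of transcription had ratios of 0.535 to 0.632 in 4 genes. LAS, the GRAS protein needed for the start of axillary meristems, had 0.979, 1.13 and 1.17 in PSII_DCMU samples, against 1.73, 1.91 and 2.11 in PSI samples. AT4G00870, a bHLH protein, had 1.94, 2.11 and 2.17 in PSII_DCMU samples, against 3.48, 3.93 and 4.04 in PSI samples. Both genes had tight, separate groups. The others were AT4G16610, a C2H2 zinc finger protein, with 0.710 ± 0.0892 in PSII_DCMU and 1.27 ± 0.203 in PSI, and AT2G25640, with a SPOC domain, with 0.626 ± 0.0624 in PSII_DCMU and 0.991 ± 0.0826 in PSI (SD, n = 3).

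Enzymes and co-chaperones made up the rest of the genes with a role. Oxidoreductases were AT1G15140, with FAD and NAD(P) binding domains, at a ratio of 0.501, the nitroreductase family gene AT1G02020 at 0.548 and the Rossmann-fold gene AT4G20760 at 0.614. TPP2, a giant peptidase that in mammals trims peptides after the proteasome, averaged 0.418 ± 0.0756 in PSII_DCMU and 0.726 ± 0.0635 in PSI (SD, n = 3). AT4G34310, an alpha/beta hydrolase, averaged 0.946 ± 0.0164 in PSII_DCMU and 1.67 ± 0.0964 in PSI (SD, n = 3). AT1G21660, with a DnaJ domain, averaged 2.33 ± 0.306 in PSII_DCMU and 3.92 ± 0.661 in PSI (SD, n = 3), and AT4G32340, a tetratricopeptide repeat protein, averaged 0.272 ± 0.0216 in PSII_DCMU and 0.541 ± 0.0508 in PSI. A feature that lists AT4G32340 with 3 more genes had a ratio of 0.434. A list of 7 measured genes for chaperones and co-chaperones was written by hand with earlier results known. It need not hold all such genes, and AT4G32340 was not on it. AT1G21660 was the only gene of the list among the 61. Of the other 6, 4 were higher (limma), where 26.4% of all features were called higher, among them the plastid chaperonin subunits Cpn60beta4 (log2 change 1.75 ± 0.122 SE, adjusted p = 0.000860) and Cpn60beta3 (0.81 ± 0.0579 SE, adjusted p = 0.000887). The trigger factor gene AT5G55220 was lower (-0.79 ± 0.123 SE, adjusted p = 0.00675), with means of 0.148 in PSII_DCMU and 0.260 in PSI, under the brightness limit.

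The 20 genes for which no role is given include the brightest of all, AT1G62250, which had 5.19, 6.61 and 7.02 in PSII_DCMU samples, against 9.24, 12.1 and 13.3 in PSI samples. AT2G33180 had 2.98, 3.55 and 4.15 in PSII_DCMU samples, against 5.68, 7.25 and 7.76 in PSI samples. In both genes the groups did not overlap, but the gap was smaller than the spread of the PSI samples. AT4G35980 had 0.381, 0.423 and 0.454 in PSII_DCMU samples, against 1.06, 1.14 and 1.23 in PSI samples. After partners were averaged, its PSI replicates had the smallest spread of the 61 (1.14 ± 0.00224, SD, n = 3). Its lowest and highest PSI samples were the partners 5 and 6, at 1.06 and 1.23, so this SD hides their difference. AT2G13690 had 0.276, 0.284 and 0.294 in PSII_DCMU samples, against 0.614, 0.669 and 0.757 in PSI samples. AT4G03150 had 0.185, 0.213 and 0.239 in PSII_DCMU samples, against 0.326, 0.439 and 0.673 in PSI samples, with the PSI samples spread widely. AT4G17440 averaged 0.953 ± 0.0838 in PSII_DCMU and 1.93 ± 0.0460 in PSI (SD, n = 3), but a feature that lists it with 1 more gene went the other way, at 1.28 in PSII_DCMU and 0.749 in PSI. In all, 7 further features list a member gene beside other genes. Of these, the features of AT4G32340, AT3G50130, AT5G19210 and AT2G13690 had ratios of 0.338 to 0.490 with no overlap of the groups. Of all features, 13.3% met the numeric limits. These 4 features list 3 or 4 genes each, so their signal need not come from the member gene. FAX3 was dim in its further feature (0.0450 in PSII_DCMU and 0.0854 in PSI), and the further features of AT1G03810 and AT4G17440 did not show the fall.

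Near the ratio and overlap limits, members differed little from genes outside. At the ratio limit, SWAP70, AT2G48130 and AT4G16060 were just inside (0.640, 0.641 and 0.645), while AT1G28150, AT2G27680 and AT1G17744 were just outside (0.651, 0.653 and 0.655). At the overlap limit, FAX3, AT3G12930 and AT3G04210 were just inside, and AT4G31530, GH9B8 and AT2G06040 were just outside, with AT4G31530 at a highest PSII_DCMU value of 29.2 and a lowest PSI value of 27.8. At the brightness limit, AT4G16060, AT4G03150 and CHL were the dimmest inside, and AILP1, AT5G55220 and AT1G05860 stood outside with PSI means of 0.289, 0.260 and 0.260.

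Sample numbers 1 and 2, 3 and 4, and 5 and 6 also paired the groups, so each gene had 3 ratios within a pair number. All 3 ratios were under 1 in all 61 genes, which the choice of genes without overlap fixed in advance. All 3 were at or under 0.65 in 37 genes, and the share of all features for this count is not given. The median ratio was 0.517 in samples 1 and 2, 0.559 in samples 3 and 4 and 0.559 in samples 5 and 6. The largest within-pair ratios belonged to FAX3 (0.889), AT4G31470 (0.874) and AT1G21660 (0.814), all in samples 3 and 4, and to AT4G20690 (0.803) in samples 1 and 2. These 4 genes were the ones not called with the pair number as a replicate block.

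**Figure D2:**
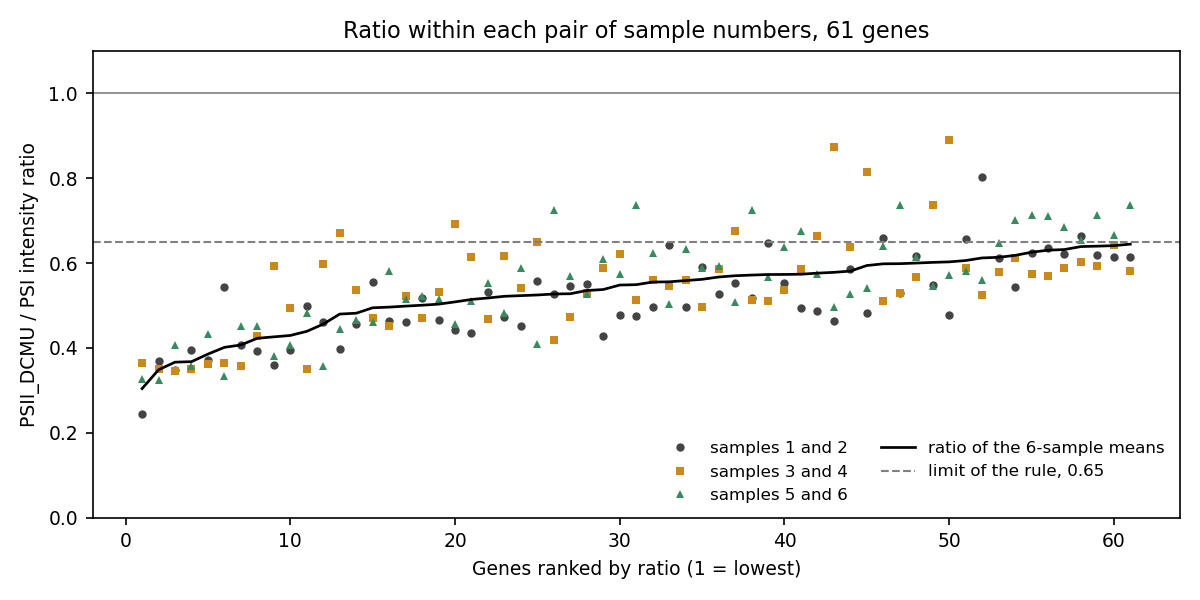
PSII_DCMU over PSI intensity ratio of the 61 genes, ranked by the ratio of the 6-sample means (line), with a point for each pair of sample numbers and a dashed line at the limit of 0.65. Points of samples 3 and 4 lie far above the line in FAX3 (0.889), AT4G31470 (0.874) and AT1G21660 (0.814). All points stay under 1, as the choice of the genes requires.

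The spread between PSI replicates was the larger in 39 of 61 genes. The coefficient of variation over 3 replicates had a median of 8.63% in PSII_DCMU and 12.4% in PSI. Over all features with a PSI mean of at least 0.3, the medians were 9.05% in PSII_DCMU and 15.3% in PSI, in the same order. A coefficient above 25% occurred in PSI for AT2G36480, LpxA, AT4G05030, AT2G22890, AT5G19210 and FAX3.

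The genes were unevenly placed in the order of feature numbers. When the numbers are cut into equal consecutive runs and each run into 3 stretches of 96 places, the first stretch held 34 of the 61 genes, the middle stretch 9 and the last stretch 18. The features with 1 gene numbered 198, 260 and 234 in these stretches, so 17.2%, 3.46% and 7.69% of them were members. The median log2 change of all features was lowest in the stretch richest in members, at -0.31, and stood at 0.42 in the middle and 0.16 in the last stretch. Of the 18 genes of the last stretch, 12 lay in its final 36 places, a division chosen after the values were seen. There 16.4% of the features with 1 gene were members, and the median of all features was -0.24. The comparison was therefore repeated with the median of each place taken out of every replicate.

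**Figure D3:**
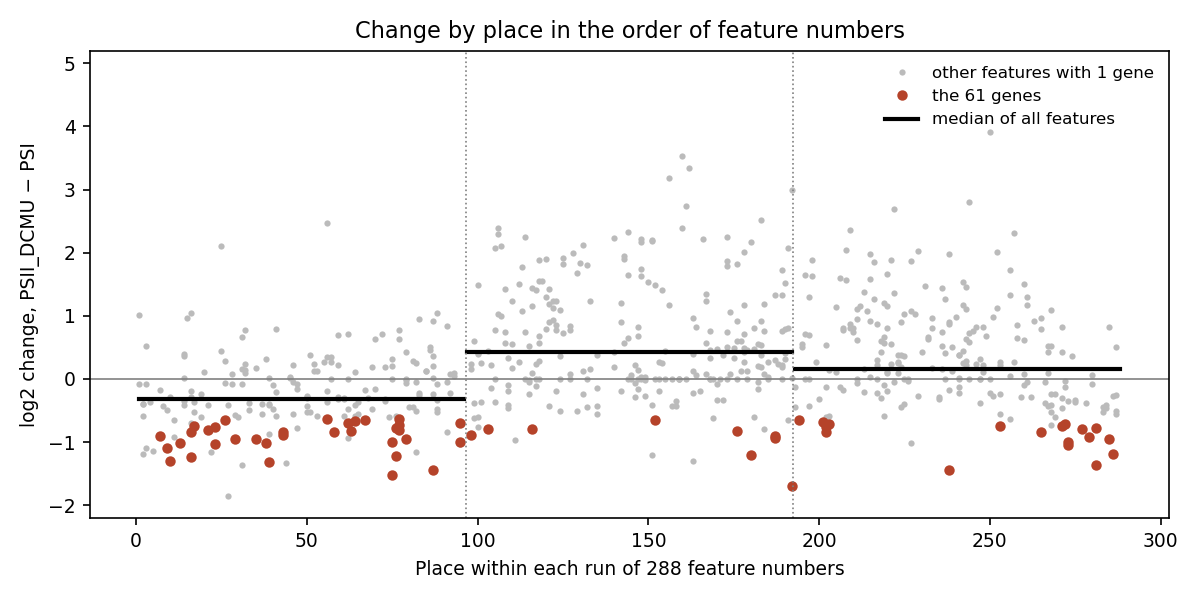
Log2 change, PSII_DCMU minus PSI, of the 692 features with exactly 1 gene against place within a run of feature numbers, with the 61 genes in red and black bars at the median of all features in each of 3 stretches. The bars stand at -0.31, 0.42 and 0.16, and the 61 genes crowd in the first stretch and at the end of the last.

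With place taken out, the median log2 change of the 61 genes was -0.37, against -0.84 as deposited, while the median of all features was 0.11 and 0.04. The change was smaller in 56 of the 61 genes, 58 kept a negative sign, 26 were called lower, where 17.7% of all features were, and 15 met all limits of the choice on the adjusted values. These 15 were AT5G11550, AT1G03810, AT5G19750, AT4G35980, AT4G22490, AT2G13690, AT3G50130, AT3G47980, AT4G17440, AT1G70350, AT4G37230, CUTA, AT3G50180, LAS and AT3G12930. All 15 also met the limits after median centring, as all 61 did, and after quantile normalization, as most of the 61 did. This does not set the 15 apart. AT3G12930 failed the limits with a pseudocount at the 5th percentile, without PSI replicate 2 and without PSII_DCMU replicate 3. The share of all features that met the limits on the place-adjusted values is not given, so nothing is read from the count of 15. The adjustment has a fault: 141 features had no sample above the floor and so no measured difference, yet 86 of them were called after it.

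The genes fared very differently under this adjustment. AT5G11550, at -1.70 as deposited, was at -2.84 ± 0.127 (log2 change, SE), AT5G19750, at -1.45, was at -2.31 ± 0.149 and AT3G50130, at -1.21, was at -2.12 ± 0.207. At the places of these 3 genes, 6 of 8, 13 of 15 and 6 of 8 features had a log2 change above 0 as deposited. Each SE in this paragraph covers the spread between replicates only. The error of a place median over so few features is not in it, so the adjusted values are less certain than their SE. AT1G03810 (-0.95 ± 0.137), AT4G35980 (-0.87 ± 0.157), CUTA (-0.75 ± 0.166) and LAS (-0.72 ± 0.141) kept a smaller fall. In contrast AT4G30680 was at -0.27 ± 0.172, AT2G36480 at -0.38 ± 0.202, LpxA at -0.42 ± 0.207, GNAT4 at -0.13 ± 0.143, AT4G00870 at -0.22 ± 0.176, AT1G62250 at -0.09 ± 0.168 and RALFL32 at -0.18 ± 0.146. Of the plastid group, CLPS1 was at -0.55 ± 0.137 and SECE1 at -0.36 ± 0.146. AT3G12930, at -0.66 as deposited, was at -1.04 ± 0.183. At its place, 10 of 13 features had a log2 change above 0 as deposited. AT2G04540 (0.087 ± 0.126), AT4G20690 (0.064 ± 0.148) and AT4G16410 (0.31 ± 0.135) changed sign.

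**Figure D4:**
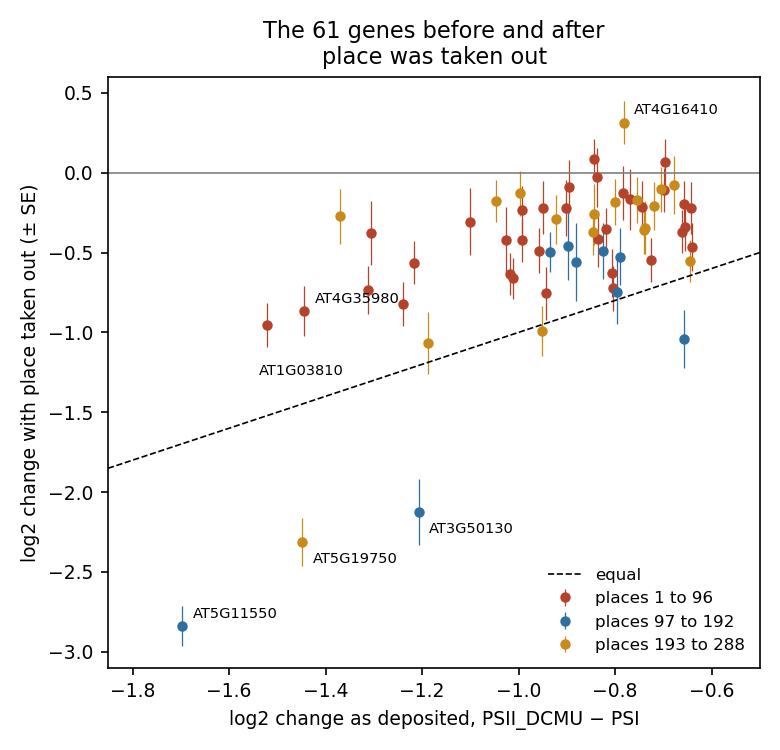
Log2 change of the 61 genes, PSII_DCMU minus PSI, as deposited (x axis) and with place taken out (y axis, bars are SE), coloured by stretch of places, with a dashed line where both are equal. AT5G11550, AT5G19750 and AT3G50130 lie far under the line at -2.84, -2.31 and -2.12, and 56 genes lie above it. The bars leave out the error of the place medians.

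Chromosome 4 carried 25 of the 61 genes, or 41.0%, while 17.3% of the features with 1 gene belonged to it. Chromosome 5 carried 4 genes, or 6.56%, against 20.7% of those features. Chromosomes 1, 2 and 3 carried 8, 15 and 9. Chromosome and place in the order of feature numbers were linked: 55.8% of the chromosome 4 features with 1 gene lay in the first stretch of places, and 4.2% of those of chromosome 5. Of the 25 chromosome 4 genes, 18 lay in the first stretch. There 18 of 67 chromosome 4 features (26.9%) and 0 of 6 chromosome 5 features were members. For chromosomes 1, 2 and 3 the first stretch had 7 of 47 (14.9%), 8 of 60 (13.3%) and 1 of 17 (5.88%). In the middle stretch, 0 of 17 chromosome 4 features and 3 of 80 chromosome 5 features (3.75%) were members. In the last stretch, 7 of 36 chromosome 4 features were members (19.4%), and 1 of 57 chromosome 5 features was (1.75%). With place taken out, the median log2 change of the features with 1 gene was 0.11 for chromosome 4 and 0.05 for chromosome 5, where as deposited it was -0.20 and 0.37. Members with fewer than 10 protein-coding genes between them were AT2G48090 and AT2G48130, CHL and AT3G47980, the 2 DUF247 genes, AT4G30680 and AT4G30740, and the row AT4G20690, AT4G20760 and TPP2.

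**Figure D5:**
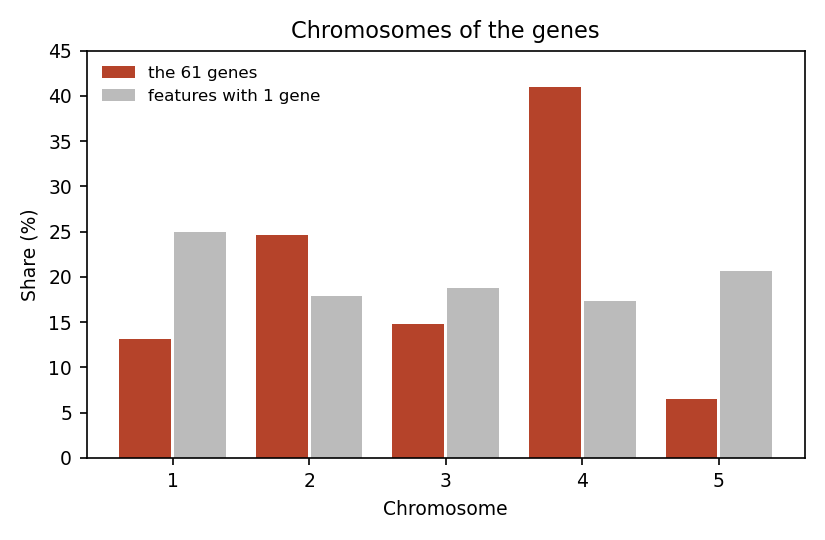
Share of the 61 genes and of the 692 features with exactly 1 gene on each chromosome, in percent. Chromosome 4 holds 41.0% of the genes and 17.3% of the features.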

How the data were processed

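The table holds 1 intensity per array feature and sample, as deposited by the authors, on a linear scale from 0 to 100. Scanning, background correction and scaling were steps not given in the sources used here. Sample means lay between 1.09 and 1.13, while sample medians were 0.632 to 0.687 in PSII_DCMU and 0.542 to 0.584 in PSI. The values were kept as deposited, with median centring and quantile normalization as alternatives. The number of arrays limits the precision. Features were named from the platform annotation: 692 had 1 gene, 870 several and 1877 none, and 690 of the 692 matched the RefSeq table of the assembly TAIR10.1 by gene identifier. A feature can detect related genes, and short names and roles not in these tables are background knowledge. The table gives no descriptions, so left-out classes and role groups were written by hand by locus, not by keyword as planned. No column of other samples was present (0). Members, lists and the adjustment for place were chosen with earlier results of these data known. The text names the 12 genes with the lowest ratio, the 5 brightest, the 3 on each side of each limit, members that act in the chloroplast and members of role groups, and the 3 genes most like AT5G11550. Other genes named were chosen after their values were seen.

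A floor of 0.0431 (the 1st percentile of positive values) replaced the 4.74% of values under it, log2 was taken, and pairs were averaged. Deviations from group means correlated at 0.38 to 0.66 between partners and at -0.51 to -0.18 otherwise, and all 12 samples matched their partner best. Same pair numbers correlated across groups at 0.29 to 0.36, other numbers at -0.33 to 0.003. The fit used lmFit and eBayes of limma 3.58.1 (R 4.3.3), two-sided, with Benjamini-Hochberg adjustment over 3439 features at 0.05, and was tested on simulated data. With 3 replicates a group, the smallest exact two-sided permutation p is 0.1. These p-values measure only the spread between samples, which may be technical. Intensity means and SD used pairs averaged on the linear scale. Figures used Python 3.11.15 and matplotlib 3.10.9. Alternatives changed scaling, low values, dim features, pairs, block, place and replicates.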

Additional observations from a re-analysis of the deposited data

Results flagged for a closer look

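Within 122 groups of 6 samples (the 61 genes in each light condition), 3 groups had a sample whose gap to its nearest neighbour took more of the group's range than Dixon's 95% critical value. Chance flags about 1 group in 20, and partner samples of a group are not independent. PSII_DCMU sample 6 was the highest of its group in AT1G70350 (0.325, next highest 0.281) and in CKA4 (0.462, next highest 0.386). PSI sample 6 was the highest of its group in TPP2 (0.872, next highest 0.723). That the groups of these 3 genes stayed apart with these samples included is required by the choice of the genes.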

How the results depend on the processing

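The number of features past the threshold was 1667, and the other settings, leaving out replicates included, gave 1138 to 2294. Higher calls made up 54.5% with the values as deposited, and 40.9% after median centring and 41.5% after quantile normalization, which moved the median of all features to -0.18 and -0.05. The median log2 change of the 61 genes, -0.84, was -1.06 with median centring, -0.93 with quantile normalization, -0.73 with a pseudocount at the 5th percentile and -0.37 with place taken out, and without any 1 replicate it ran from -0.91 to -0.84. Called lower were 59 genes, 26 with place taken out, 57 with the pair number as a replicate block and 47 to 58 without 1 replicate. Of all features, 22.0%, 17.7%, 22.7% and 15.4% to 21.1% were called lower in the same settings. All limits were still met by 61 genes under median centring, 51 under quantile normalization, 49 with the pseudocount, 15 with place taken out and 54 to 60 without 1 replicate, and by 61 with averaged pairs, an alternative chosen after seeing the data. Of all features, 13.3% met the limits as deposited. That share is not given for the other settings, so nothing is read from these counts. Of 854 values of single genes under the alternatives, 3 changed sign, all with place taken out: AT2G04540 (0.087), AT4G16410 (0.31) and AT4G20690 (0.064). The cause of these shifts was not tested. The background level of the deposited intensities is unknown.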
